A study of Arvicanthis niloticus with 59 samples.

Results

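Ovary was set against uterus in RNA-seq data of a diurnal rodent, the Nile grass rat (Arvicanthis niloticus). The comparison used every library labelled ovary, which is 1 from animal T3F and 1 from animal T173F, and the only library labelled uterus, from animal T3F. These are 3 of 59 libraries, which together cover 48 sites in 4 animals. The labels describe all 3 as polyadenylated RNA from biopsies of healthy tissue without treatment; the sources used here state no cycle stage, breeding history or age. Levels are TPM, transcript abundances scaled by length and library size. Ovary T3F and the uterus came from the same animal, and the uterus had no replicate. In whole-organ RNA, fewer cells of a type and less RNA per cell cannot be told apart.

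The ovary holds follicles, in which granulosa and theca cells surround an oocyte, and corpora lutea, the glands that form from follicles after ovulation and make progesterone. Theca cells make androgens, which granulosa cells turn into estrogens, and granulosa cells also secrete inhibin and anti-Müllerian hormone. Luteal cells take up cholesterol and carry it into mitochondria, where steroid synthesis begins. The uterus develops from the Müllerian duct, patterned by posterior Hox genes, and consists of an epithelium with glands, a hormone-responsive stroma and a smooth muscle wall. The oviduct, which lies between them, also derives from that duct and is lined by ciliated and secretory cells.

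Both ovary libraries carried the ovarian check genes. Inha, the inhibin alpha subunit, was at 7632 TPM in ovary T3F and 4769 TPM in ovary T173F, against 46.4 TPM in the uterus. Star, which moves cholesterol into mitochondria, was at 13782 TPM in ovary T3F and 746 TPM in ovary T173F, against 4.90 TPM in the uterus. For both genes each ovary library lay above the uterus, and for Star the ovary libraries themselves lay 18.5-fold apart on TPM + 1. The uterus library in turn held Hoxa11, a patterning gene of the uterus, at 246 TPM, where ovary T3F was listed at 0 TPM and ovary T173F had 1.51 TPM.

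The ovary libraries differed from each other in content. Ovary T173F held genes of the oviduct and of motile cilia: Ovgp1, the oviduct glycoprotein, was at 0.273 TPM in ovary T3F and 1595 TPM in ovary T173F, against 7.04 TPM in the uterus. The 11 listed oviduct and ciliated cell genes summed to 76.8 TPM in ovary T3F, 4179.9 TPM in ovary T173F and 123 TPM in the uterus, and all 11 had some TPM in each library. The 18 listed genes of uterine epithelium summed to 345, 4711 and 3144 TPM in ovary T3F, ovary T173F and the uterus. Because of this, each result below is given for each ovary library separately. Total expected counts were 16911343 in ovary T3F, 10068697 in ovary T173F and 20136916 in the uterus, and 14591, 15324 and 14671 genes reached 1 TPM in these libraries. A count of 3, taken as the limit of detection, equals 0.177, 0.298 and 0.149 CPM (library-scaled counts) in ovary T3F, ovary T173F and the uterus. Elsewhere in the series, the libraries labelled liver T3F and lung T3F held genes of each other's organ and pancreas T173F had few counts; they enter the tests through the estimate of spread, and counts without them (the reduced set) are given where they matter.

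**Figure D1:**
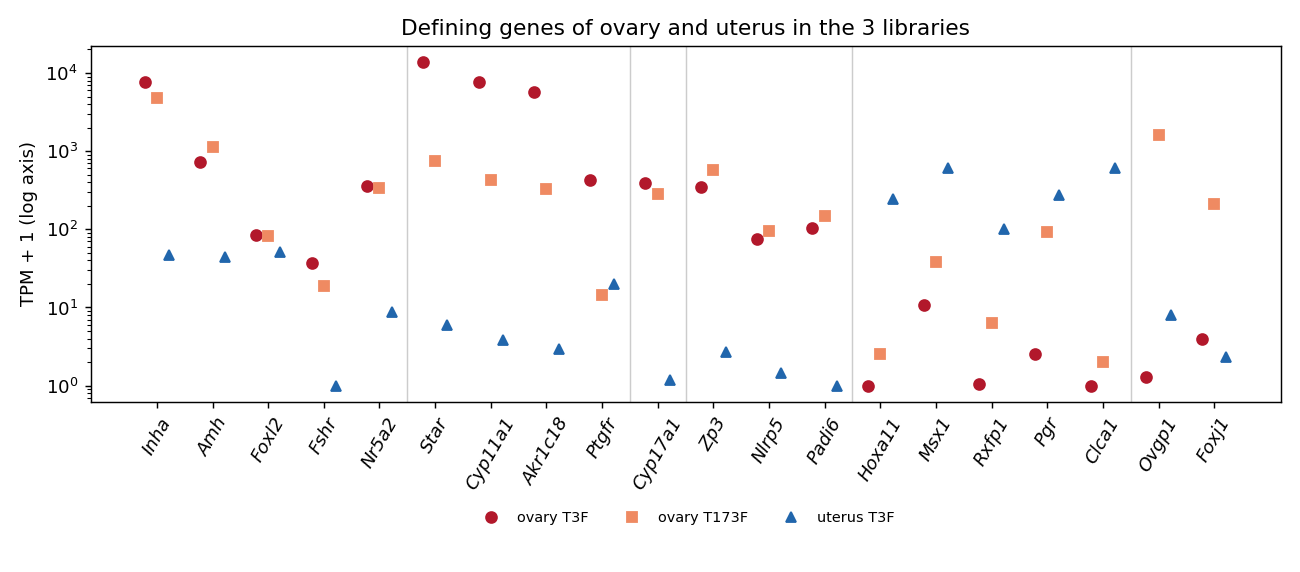
TPM + 1 on a log axis (y) of 20 ovary, uterus and oviduct genes (x) in ovary T3F (circles), ovary T173F (squares) and uterus T3F (triangles); each point is 1 library and vertical lines part the gene groups. Granulosa and oocyte genes have both ovary points together and far above the uterus except for Foxl2, luteal genes have ovary T3F at the top, and Ovgp1 and Foxj1 are high in ovary T173F alone.

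Across all genes, the test of ovary against uterus made no call. By edgeR's quasi-likelihood test with Benjamini-Hochberg adjustment, over a model of all libraries in which the lone uterus is assumed to vary like the sites with 2 animals, 0 of 18323 genes (0%) were called higher and 0 (0%) lower at an adjusted p below 0.05 and a log2 fold change of at least 1. The smallest adjusted p was 0.966, and 498 genes had an unadjusted p below 0.05. In the reduced set edgeR again called 0 genes, with 1091 at an unadjusted p below 0.05. DESeq2 on the same counts called 177 genes higher (0.966% of those tested) and 43 lower (0.235%), and limma-voom called 5 higher (0.0273%) and 8 lower (0.0437%). Of the 43 lower calls of DESeq2, 15 had 0 counts in both ovary libraries, so that their fitted fold is no bound. Leaving out ovary T173F, DESeq2 called 193 genes higher and 217 lower; leaving out ovary T3F, it called 79 higher and 41 lower. Of the genes in the lists used below, edgeR called 0, DESeq2 called 14 higher and 3 lower, and limma-voom called 2 higher and 3 lower.

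Genes were therefore also described by size, with no test. In each of the 2 ovary libraries 297 of 18970 genes (1.57%) were at least 4-fold above the uterus on TPM + 1 with at least 10 TPM in both ovary libraries, and 205 (1.08%) were at least 4-fold below it with at least 10 TPM in the uterus. On TMM-scaled CPM in place of TPM, 170 genes were above by the same rule and 142 below. Taken alone, ovary T3F had 746 genes above and 879 below the uterus by the same sizes, and ovary T173F had 889 above and 306 below. Of the 297 genes, 97 (32.66%) had their highest level among the 48 sites in ovary. Of the 205 genes, 51 (24.88%) were highest in uterus. Among 18289 genes with 10 TPM somewhere these shares were 3.067% and 3.729%. The rule itself picks genes high in ovary or in uterus, so shares above those of all genes are partly built in. With no limit on size, both ovary libraries lay above the uterus for 5169 of 18970 genes (27.2%) and below it for 5660 (29.8%), and ovary T3F lay above ovary T173F for 7388 (38.9%).

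**Figure D2:**
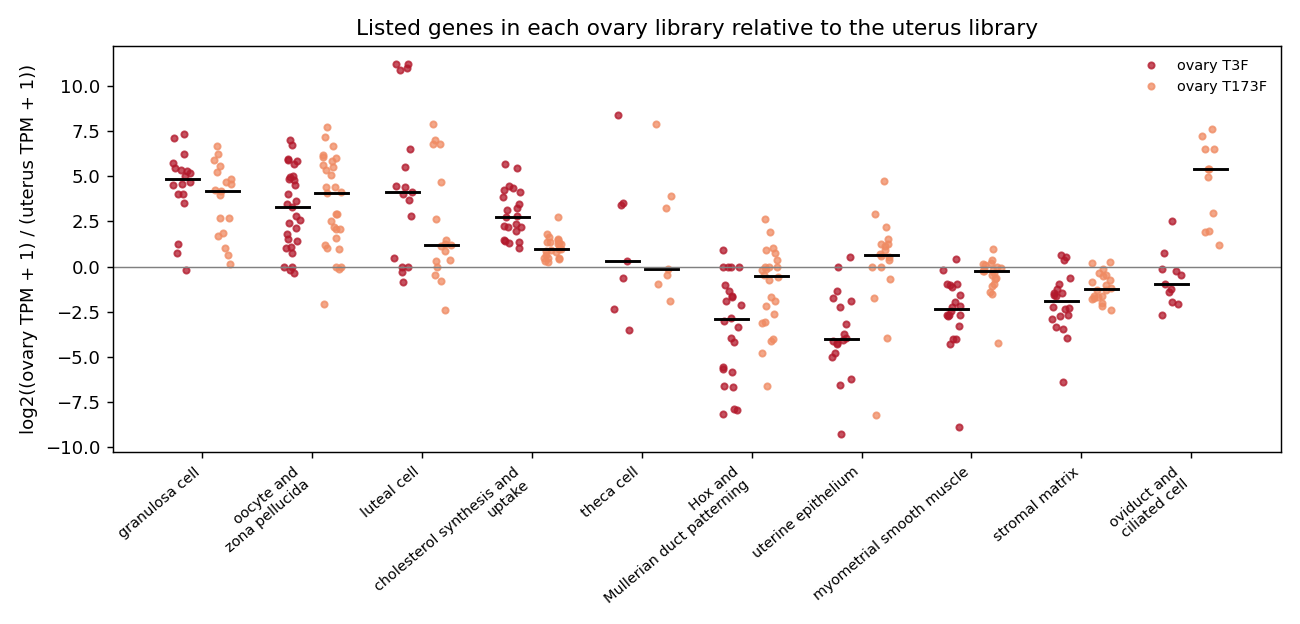
Log2 ratio of TPM + 1 to the uterus (y) for each gene of 10 lists (x), in ovary T3F (dark, left) and ovary T173F (light, right); a point is 1 gene in 1 library and black lines are list medians. Granulosa and oocyte medians lie above 0 in both ovary libraries, Hox and matrix medians below 0 in both, and the oviduct and uterine epithelium medians lie below 0 in ovary T3F and above 0 in ovary T173F.

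Granulosa cell genes stood high in both ovary libraries. Of 18 listed genes, 13 were past the 4-fold size in both ovary libraries and 0 below (1.57% and 1.08% of all genes). Both ovary libraries lay above the uterus for 17 of 18, where they did for 27.2% of all genes. The list's median log2 ratio to the uterus was 4.84 in ovary T3F and 4.21 in ovary T173F, where the medians of all genes were -0.01 and 0.00. The exception was Ihh, a hedgehog ligand, at 11.7, 15.0 and 13.4 TPM in ovary T3F, ovary T173F and the uterus.

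Inha was the leading member and, with a mean of 6200.5 ± 2024 TPM (SD, n = 2 ovaries), had its next highest site at 381 TPM. Its edgeR log2 fold change was 7.06 ± 1.91 (SE) with an adjusted p of 1, which spanned 1.84e-09 to 1 over 15 other settings; DESeq2 gave an adjusted p of 1.66e-08 and limma-voom 0.0272. Amh, anti-Müllerian hormone of small growing follicles, was at 732 TPM in ovary T3F and 1144 TPM in ovary T173F, against 43.5 TPM in the uterus. Its log2 fold change was 4.397 ± 1.18 (SE) by edgeR with an adjusted p of 1, spanning 6.27e-08 to 1 over 15 other settings, and 4.404 ± 0.68 by DESeq2 with an adjusted p of 6.27e-08. Both ovary libraries lay above the uterus for these genes, and ovary T173F was the higher one for Amh.

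The inhibin beta subunits differed more between the ovaries. They pair with the alpha subunit to form inhibins, or with each other to form activins. Inhba was at 69.6 TPM in ovary T3F and 10.6 TPM in ovary T173F, against 0.770 TPM in the uterus, and Inhbb at 994 TPM in ovary T3F and 198 TPM in ovary T173F, against 60.5 TPM in the uterus. For both, ovary T3F was over 4-fold above ovary T173F on TPM + 1. Inhba was also called higher by DESeq2, with an adjusted p of 0.0115, spanning 0.00371 to 1 over 15 other settings; without ovary T3F the adjusted p was 0.873 and the log2 fold change 3.71, in place of 5.73. Fshr, the receptor for follicle-stimulating hormone, was at 35.6 TPM in ovary T3F and 18.1 TPM in ovary T173F and listed at 0 in the uterus. Amhr2, the receptor for anti-Müllerian hormone, was at 117 TPM in ovary T3F and 81.4 TPM in ovary T173F, against 3.58 TPM in the uterus. Esr2, the estrogen receptor form of granulosa cells, was at 32.0 TPM in ovary T3F and 28.5 TPM in ovary T173F, against 0.0376 TPM in the uterus. Hsd17b1, which makes estradiol, was nearly level between ovaries at 524 TPM in ovary T3F and 534 TPM in ovary T173F, against 21.3 TPM in the uterus. Cyp19a1, the aromatase that makes estrogens, was at 43.2 TPM in ovary T3F and 2.64 TPM in ovary T173F, 12.2-fold apart on TPM + 1, and at 0 in the uterus.

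Among 14 gonadal transcription factors, 5 were past the 4-fold size in both ovary libraries and 0 below (1.57% and 1.08% of all genes). Nr5a1, the steroidogenic factor that switches on steroid enzyme genes, was at 148 TPM in ovary T3F and 79.3 TPM in ovary T173F, against 0.0712 TPM in the uterus. Its relative Nr5a2, needed in mice for ovulation and luteal function, was at 357 TPM in ovary T3F and 336 TPM in ovary T173F, against 7.87 TPM in the uterus. Gata4, a zinc-finger factor of granulosa and theca cells, was at 97.2 TPM in ovary T3F and 76.9 TPM in ovary T173F, against 0.283 TPM in the uterus, and Nr0b1, a repressor of steroid enzyme genes, at 172.6 TPM in ovary T3F and 156 TPM in ovary T173F, against 2.28 TPM in the uterus. All 4 were closer between the ovaries than either ovary was to the uterus. Foxo1, a forkhead factor of granulosa cells, was at 799 TPM in ovary T3F and 1111 TPM in ovary T173F, against 182 TPM in the uterus, and ovary was the highest of its 48 sites. Foxl2, the forkhead factor that keeps granulosa identity, did not separate the organs in this way, at 84.4 TPM in ovary T3F and 80.6 TPM in ovary T173F, against 50.3 TPM in the uterus; ovary and uterus were its highest and next highest sites. Wt1, a factor of gonadal and Müllerian mesenchyme, was at 67.3, 157 and 143 TPM in ovary T3F, ovary T173F and the uterus.

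Most oocyte genes were higher in both ovaries than in the uterus. Of 29 listed genes, 15 were past the 4-fold size in both ovary libraries and 0 below (1.57% and 1.08% of all genes). For 23 both ovary libraries lay above the uterus, against 27.2% of all genes, and 12 were listed at 0 in the uterus. The median log2 ratio to the uterus was 3.30 in ovary T3F and 4.09 in ovary T173F, and between the ovaries it was -0.48 (T3F over T173F). Zp3, a protein of the zona pellucida coat to which sperm bind, was at 348 TPM in ovary T3F and 567 TPM in ovary T173F, against 1.67 TPM in the uterus, and Zp1 and Zp2, other coat proteins, were at 27.8 TPM in ovary T3F and 40.02 TPM in ovary T173F and at 30.1 TPM in ovary T3F and 54.2 TPM in ovary T173F, with 0.239 and 0.107 TPM in the uterus. Each of these coat genes was higher in ovary T173F.

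Gdf9, a growth factor that the oocyte sends to granulosa cells, was at 35.5 TPM in ovary T3F and 58.2 TPM in ovary T173F, against 2.33 TPM in the uterus. Its partner Bmp15 was at 221, 214 and 105 TPM in ovary T3F, ovary T173F and the uterus; the uterus was its next highest site of 48. Proteins of the oocyte cortex were present in both ovaries: Nlrp5 was at 73.6 TPM in ovary T3F and 94.5 TPM in ovary T173F, against 0.447 TPM in the uterus, Padi6 at 104 TPM in ovary T3F and 146 TPM in ovary T173F and at 0 in the uterus, and Ooep at 99.1 TPM in ovary T3F and 64.3 TPM in ovary T173F, against 0.591 TPM in the uterus. Npm2, an oocyte chromatin protein, was at 57.3 TPM in ovary T3F and 99.4 TPM in ovary T173F, Astl, the enzyme that hardens the zona after fertilization, at 32.3 TPM in ovary T3F and 65.9 TPM in ovary T173F, and the oocyte gene Zar1l at 29.8 TPM in ovary T3F and 63.0 TPM in ovary T173F; the uterus had 0, 0.160 and 0 TPM of these. Khdc3, another gene of the oocyte cortex, was at 32.2, 1.22 and 8.39 TPM in ovary T3F, ovary T173F and the uterus, on 46, 1 and 14.1 expected counts. Figla at 8.84 TPM in ovary T3F and Oosp2 at 20.5 TPM in ovary T173F rested on 3 expected counts each, the limit of detection, and were at 0 in the other 2 libraries. Zar1 was at 0 in all 3 libraries. By edgeR the largest fold among the coat genes was that of Zp2, 8.29 ± 2.53 (SE) with an adjusted p of 1, spanning 0.0507 to 1 over 15 other settings, and 0 oocyte genes were called by DESeq2. The Nlrp genes are a family of close relatives, among which reads may be shared.

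Steroid synthesis genes were mostly higher in both ovaries than in the uterus, and many were far higher in ovary T3F. Of 18 listed genes, 15 had both ovary libraries above the uterus, where 27.2% of all genes did. Of the 18, 7 were past the 4-fold size in both ovary libraries, where 1.57% of all genes were. In ovary T3F 10 were at least 4-fold higher than in ovary T173F, against 1.92%, and 0 the other way, against 6.52%. The list summed to 38725 TPM in ovary T3F and 3643 TPM in ovary T173F, against 418 TPM in the uterus. The luteal list shares many of these genes: of its 17 members 6 were past the size in both ovaries and 10 were higher in ovary T3F, with a median log2 ratio between ovaries of 3.21.

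Along the pathway, Star was at 13782 TPM in ovary T3F and 746 TPM in ovary T173F, and was the second most abundant gene of ovary T3F after the mitochondrial mt-Nd1. Cyp11a1, which cuts the cholesterol side chain to give pregnenolone, was at 7681 TPM in ovary T3F and 427 TPM in ovary T173F, against 2.85 TPM in the uterus. Hsd3b1, which makes progesterone from pregnenolone, was at 6131 TPM in ovary T3F and 611 TPM in ovary T173F, against 1.63 TPM in the uterus. Fdx1 and Fdxr, which pass electrons to the mitochondrial enzymes, were at 1044, 74.1 and 58.4 TPM in ovary T3F, ovary T173F and the uterus and at 619, 135 and 47.2 TPM in ovary T3F, ovary T173F and the uterus. Scarb1, the receptor that takes up cholesterol from high-density lipoprotein, was at 1994 TPM in ovary T3F and 215 TPM in ovary T173F, against 89.2 TPM in the uterus. In all of these the order was ovary T3F, ovary T173F, uterus, and the gap between the ovaries was 4.55- to 18.5-fold on TPM + 1.

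DESeq2 called Star, Cyp11a1, Akr1c18, Cyp17a1 and Srd5a1 higher in ovary. For Star its log2 fold change was 10.58 ± 1.54 (SE) with an adjusted p of 5.18e-09, where edgeR gave 10.61 ± 3.01 with an adjusted p of 1; over 15 other settings the adjusted p spanned 4.07e-13 to 1 and the log2 fold change 7.11 to 11.52. For Cyp11a1 DESeq2 gave an adjusted p of 9.95e-08, spanning 6.47e-09 to 1. Srd5a1, which reduces progesterone and testosterone, was at 639 TPM in ovary T3F and 102 TPM in ovary T173F, against 14.0 TPM in the uterus; its DESeq2 adjusted p was 4.38e-04, spanning 1.06e-07 to 1. Without ovary T3F the DESeq2 adjusted p of Star, Cyp11a1 and Akr1c18 was 0.00199, 0.0104 and 0.0171, and that of Srd5a1 was 0.193, past the threshold no longer, at a log2 fold change of 2.78 in place of 4.76. The other Hsd3b genes of the table include near copies of Hsd3b1, among which the counting may split reads. Summed over 6 genes the family had 11335 TPM in ovary T3F and 2143 TPM in ovary T173F, against 36.9 TPM in the uterus. Hsd3b1, Hsd3b3, Hsd3b5 and Hsd3b6 were at 1.63, 0.515, 0 and 0.605 TPM in the uterus. Most of the uterine sum thus lay in other members, and 1 gene of the 6 reached 10 TPM there.

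Many genes of luteal life showed the same order. Of the 17 in the luteal list, 12 had both ovary libraries above the uterus and 2 below, against 27.2% and 29.8% of all genes, and 14 were higher in ovary T3F than in ovary T173F, against 38.9%. Akr1c18, which inactivates progesterone when a rodent corpus luteum regresses, was at 5643 TPM in ovary T3F and 327 TPM in ovary T173F, against 1.98 TPM in the uterus. Ptgfr, the receptor through which prostaglandin F2 alpha ends luteal life, was at 421 TPM in ovary T3F and 13.5 TPM in ovary T173F, against 18.8 TPM in the uterus, so ovary T173F lay below the uterus. Prlr, the receptor for prolactin, which maintains the rodent corpus luteum, was at 514 TPM in ovary T3F and 33.0 TPM in ovary T173F, against 4.57 TPM in the uterus, and Hsd17b7, an enzyme of luteal estradiol synthesis, at 97.0 TPM in ovary T3F and 6.87 TPM in ovary T173F, against 5.09 TPM in the uterus. Lhcgr, the receptor for luteinizing hormone on theca, mature granulosa and luteal cells, differed less between the ovaries, at 59.6 TPM in ovary T3F and 32.8 TPM in ovary T173F, against 0.327 TPM in the uterus. The 9 Akr1c genes, again near copies, summed to 11217, 1059 and 546 TPM in ovary T3F, ovary T173F and the uterus.

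Enzymes of the adrenal branch were low in the ovaries. Cyp21a1, which leads to corticosteroids, was at 5.58 TPM in ovary T3F and 2.81 TPM in ovary T173F, against 22271 TPM in the adrenal gland that the labels list under kidney, and Cyp11b1, the last enzyme of corticosteroid synthesis, was at 0 TPM in ovary T3F and 1.28 TPM in ovary T173F, against 14917 TPM there. Star in that adrenal library was at 10796 TPM, so ovary T3F exceeded it, and Cyp11a1 was at 2779.8 TPM. Over 18970 genes ovary T3F was nearest in rank to this adrenal library (Spearman rho 0.865), ahead of the uterus (0.853) and ovary T173F (0.851), while ovary T173F was nearest to the uterus (0.875). These are correlations across genes, which are not replicates.

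**Figure D3:**
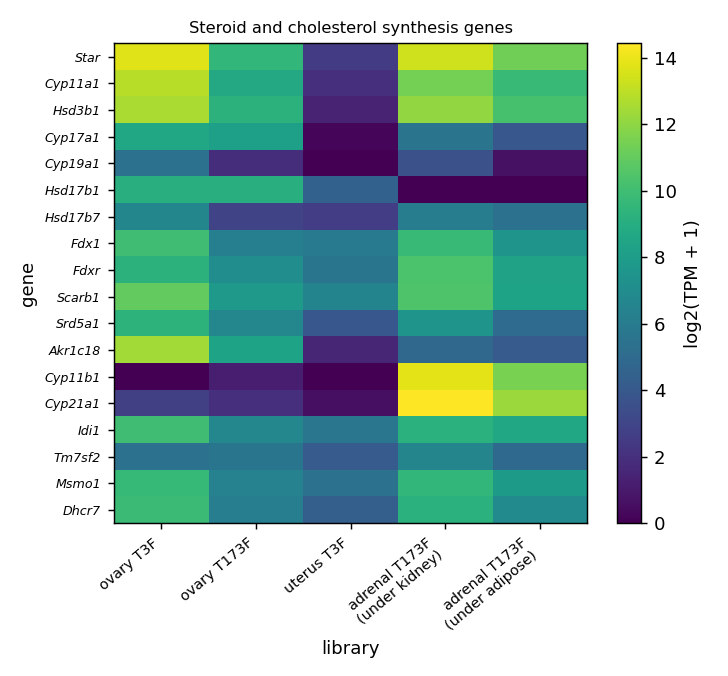
Log2(TPM + 1) (colour) of the steroid and cholesterol synthesis genes described here (lines) in ovary T3F, ovary T173F, uterus T3F and, for scale, the adrenal libraries of T173F (columns). Star, Cyp11a1, Hsd3b1 and Akr1c18 are brightest in ovary T3F, and Cyp11b1 and Cyp21a1 are bright in the adrenal columns alone.

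Theca cell genes were mixed. Of 7 listed genes, 3 were past the 4-fold size in both ovary libraries and 0 below (1.57% and 1.08% of all genes). Cyp17a1, the enzyme of androgen synthesis, was near even between the ovaries at 396 TPM in ovary T3F and 279 TPM in ovary T173F, against 0.186 TPM in the uterus; DESeq2 gave a log2 fold change of 10.82 ± 2.50 (SE) with an adjusted p of 0.00265, edgeR an adjusted p of 1, and the 15 other settings spanned 1.05e-04 to 1. Without ovary T3F the DESeq2 log2 fold change was 10.48 and its adjusted p 0.0634. Insl3, a peptide hormone of theca cells, was at 48.4 TPM in ovary T3F and 69.3 TPM in ovary T173F, against 3.66 TPM in the uterus, and Hhip, which binds hedgehog ligands, at 20.4 TPM in ovary T3F and 16.7 TPM in ovary T173F, against 0.855 TPM in the uterus. The hedgehog target Gli1 lay the other way, at 6.07, 20.1 and 79.2 TPM in ovary T3F, ovary T173F and the uterus, and had its highest level of 48 sites in uterus.

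Cholesterol synthesis and uptake genes were higher in both ovaries than in the uterus and mostly higher in ovary T3F. All 22 listed genes had both ovary libraries above the uterus, where 27.2% of all genes did. Of the 22, 21 were higher in ovary T3F than in ovary T173F, against 38.9% of all genes, and 8 were so by at least 4-fold, against 1.92%. The median log2 ratio to the uterus was 2.77 in ovary T3F and 0.99 in ovary T173F. Dhcr7, which acts in the last steps to cholesterol, was at 908 TPM in ovary T3F and 71.5 TPM in ovary T173F, against 19.7 TPM in the uterus. It was called higher by DESeq2, with an adjusted p of 0.0147, spanning 3.39e-04 to 1 over 15 other settings, and edgeR gave 1. The DESeq2 log2 fold change of Dhcr7 was 5.58 without ovary T173F and 1.79 without ovary T3F, in place of 4.68. Idi1, an isomerase early in the pathway, was at 1041 TPM in ovary T3F and 100 TPM in ovary T173F, against 49.98 TPM in the uterus, and Msmo1, a sterol oxidase, at 829.7 TPM in ovary T3F and 84.8 TPM in ovary T173F, against 42.4 TPM in the uterus. Tm7sf2, a sterol reductase, was the member higher in ovary T173F, at 42.6 TPM in ovary T3F and 48.8 TPM in ovary T173F, against 16.5 TPM in the uterus.

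Hormone receptors split between the organs. Of 15 listed, 5 were past the 4-fold size above the uterus in both ovaries (Fshr, Lhcgr, Prlr, Esr2 and Amhr2). Past that size below the uterus was 1 (Rxfp1), where 1.57% of all genes were above and 1.08% below. Rxfp1, the relaxin receptor, was at 0.0362 TPM in ovary T3F and 5.40 TPM in ovary T173F, against 99.3 TPM in the uterus, the highest site being uterus. Pgr, the progesterone receptor, was at 1.57 TPM in ovary T3F and 90.3 TPM in ovary T173F, against 278 TPM in the uterus, and Esr1, the main estrogen receptor of the uterus, at 9.40 TPM in ovary T3F and 122 TPM in ovary T173F, against 182 TPM in the uterus. For these 2 genes ovary T173F lay nearer to the uterus and ovary T3F far below, 35.5-fold and 11.8-fold under ovary T173F on TPM + 1. Oxtr, the oxytocin receptor, was at 12.8, 11.4 and 8.42 TPM in ovary T3F, ovary T173F and the uterus and did not reach 2-fold between organs. Ptger4, a receptor for prostaglandin E2, was at 154, 34.0 and 61.5 TPM in ovary T3F, ovary T173F and the uterus.

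Genes of the ovulation response were mixed: of 17 listed, 6 had both ovary libraries above the uterus and 8 had both below it, against 27.2% and 29.8% of all genes. By size, 1 was past the 4-fold size above the uterus in both ovaries (Lhcgr) and 3 below, against 1.57% and 1.08% of all genes. Cebpb, a transcription factor of the response, was at 206, 119 and 168 TPM in ovary T3F, ovary T173F and the uterus, and Rgs2, a regulator of G protein signalling, at 45.3, 44.7 and 32.3 TPM in ovary T3F, ovary T173F and the uterus. Ptgs2, which makes the prostaglandins of ovulation, was at 0.327, 0.821 and 2.31 TPM in ovary T3F, ovary T173F and the uterus, and the growth factors Areg and Ereg, which relay the ovulatory signal, were at 1.06, 0.599 and 0.298 TPM in ovary T3F, ovary T173F and the uterus and at 0.842, 0.561 and 0.0455 TPM in ovary T3F, ovary T173F and the uterus. Tnfaip6 and Has2, which build the matrix around the ovulating oocyte, were at 1.90, 3.24 and 110.4 TPM in ovary T3F, ovary T173F and the uterus and at 0, 0 and 12.6 TPM in ovary T3F, ovary T173F and the uterus, and Adamts1, a matrix protease, at 37.2, 28.9 and 181 TPM in ovary T3F, ovary T173F and the uterus. Tnfaip6, Has2 and Adamts1 were thus higher in the uterus than in either ovary. Tnfaip6 had the smallest unadjusted edgeR p of the list, with a log2 fold change of -5.43 ± 1.24 (SE) and an adjusted p of 0.966; DESeq2 gave an adjusted p of 1.87e-04, and 14 other settings spanned 1.15e-04 to 1.

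Activin, BMP and anti-Müllerian hormone signalling had members on both sides. Of 25 listed genes 9 were past the 4-fold size above the uterus in both ovaries and 1 below (1.57% and 1.08% of all genes). Beside the ligands above, Bmpr1b, a receptor for BMP ligands, was at 39.2 TPM in ovary T3F and 49.9 TPM in ovary T173F, against 2.65 TPM in the uterus, and the antagonist Grem1 was at 41.7 TPM in ovary T3F and 15.2 TPM in ovary T173F, against 2.27 TPM in the uterus. Fst, which binds activin, was at 172 TPM in ovary T3F and 118 TPM in ovary T173F, against 6.50 TPM in the uterus. Gdf7, a BMP-family ligand, was the member below, at 1.92 TPM in ovary T3F and 12.2 TPM in ovary T173F, against 206 TPM in the uterus. Fstl3, another activin binder, was at 2.78 TPM in ovary T3F and 14.4 TPM in ovary T173F, against 57.6 TPM in the uterus, and Bmp7 at 19.2 TPM in ovary T3F and 34.3 TPM in ovary T173F, against 91.7 TPM in the uterus. The type 1 and type 2 receptors Bmpr1a and Acvr2a were at 155, 121 and 110.2 TPM in ovary T3F, ovary T173F and the uterus and at 43.7, 31.1 and 49.5 TPM in ovary T3F, ovary T173F and the uterus, within 2-fold.

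Most uterine patterning genes were lower in both ovaries. Of 24 listed Hox and Müllerian duct genes, 15 had both ovary libraries below the uterus, where 29.8% of all genes did, and 1 had both above (Wnt4, a ligand of duct formation, at 7.19, 8.13 and 3.40 TPM in ovary T3F, ovary T173F and the uterus). By size, where 1.08% of all genes were below, 8 were past the 4-fold size below the uterus in both ovary libraries and 0 above. Their median log2 ratio to the uterus was -2.93 in ovary T3F and -0.52 in ovary T173F; 9 of the 24 were at least 4-fold higher in ovary T173F than in ovary T3F, where 6.52% of all genes were, and 0 in the other direction. Hoxa11 was at 0 TPM in ovary T3F and 1.51 TPM in ovary T173F, against 246 TPM in the uterus, Hoxa10, which acts beside it in implantation in mice, at 0.178 TPM in ovary T3F and 6.34 TPM in ovary T173F, against 59.5 TPM in the uterus, and Hoxd10 at 0.688 TPM in ovary T3F and 1.84 TPM in ovary T173F, against 77.2 TPM in the uterus. These genes mark the uterus along the duct, and all 3 were under 1 TPM in ovary T3F; in ovary T173F Hoxa10 had 185 expected counts, Hoxa11 11 and Hoxd10 28. Other listed genes were above the uterus in ovary T173F and below it in ovary T3F: Hoxc8 at 3.78, 89.0 and 13.6 TPM, Hoxc9 at 5.18, 22.8 and 11.7 TPM, Pax8 at 0.667, 23.1 and 5.35 TPM and Emx2 at 11.5, 113 and 89.2 TPM in ovary T3F, ovary T173F and the uterus.

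Hoxa9, which marks the oviduct end of the mouse duct, was at 0.955 TPM in ovary T3F and 90.4 TPM in ovary T173F, against 560.3 TPM in the uterus. Msx1, a homeobox factor of uterine epithelium and stroma, was at 9.72 TPM in ovary T3F and 37.3 TPM in ovary T173F, against 606 TPM in the uterus; its log2 fold change was -4.76 ± 1.20 (SE) by edgeR with an adjusted p of 1, spanning 1.31e-04 to 1 over 15 other settings, and DESeq2 and limma-voom gave adjusted p of 0.00151 and 0.0272; without ovary T3F that of DESeq2 was 0.0641, at a log2 fold change of -4.10 in place of -4.74. Hand2, a stromal factor that answers progesterone in mice, was at 0.393 TPM in ovary T3F and 70.6 TPM in ovary T173F, against 326 TPM in the uterus. Wnt7a, the epithelial ligand that maintains Müllerian patterning, was at 0.291 TPM in ovary T3F and 77.5 TPM in ovary T173F, against 128 TPM in the uterus, and Pax2, a factor of duct epithelium, at 0 TPM in ovary T3F and 84.0 TPM in ovary T173F, against 94.9 TPM in the uterus. For Wnt7a and Pax2 ovary T173F lay within 2-fold of the uterus while ovary T3F was at or near 0. Summed over 11 genes, the Hoxa cluster had 17.7 TPM in ovary T3F and 1007 TPM in ovary T173F, against 1130 TPM in the uterus. The Hoxb and Hoxc clusters summed to 132 and 56.1 TPM in ovary T3F and 807 and 579 TPM in ovary T173F, against 327 and 151 TPM in the uterus. The oviduct genes of ovary T173F are given beside this; their part in these differences was not tested.

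Uterine epithelium genes were mostly low in ovary T3F and mostly at or above the uterine level in ovary T173F. Of 18 measured genes, 2 were past the 4-fold size below the uterus in both ovaries, against 1.08% of all genes, and 0 were above. In ovary T173F 11 were at least 4-fold higher than in ovary T3F, against 6.52%. The median log2 ratio to the uterus was -4.02 in ovary T3F and 0.65 in ovary T173F. Krt19, Krt18 and Krt8, keratins of simple epithelium, were at 4.08, 768 and 466 TPM in ovary T3F, ovary T173F and the uterus, at 19.7, 793 and 356 TPM in ovary T3F, ovary T173F and the uterus and at 22.1, 434 and 302 TPM in ovary T3F, ovary T173F and the uterus. Cdh1, the adhesion protein of epithelia, was at 2.49, 209.5 and 112 TPM in ovary T3F, ovary T173F and the uterus. In all of these ovary T173F exceeded the uterus and ovary T3F was the lowest. Foxa2, the factor of uterine glands, was at 0, 87.3 and 18.1 TPM in ovary T3F, ovary T173F and the uterus, and Ltf, an estrogen-responsive secretory protein, at 0.124, 141 and 4.31 TPM in ovary T3F, ovary T173F and the uterus.

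Some genes of the uterine epithelium list did stay at or near 0 in both ovaries. Clca1, a secreted regulator of mucus, was at 0 TPM in ovary T3F and 1.02 TPM in ovary T173F, against 603 TPM in the uterus. Its highest site was colon, at 1851 TPM. Its fitted log2 fold change was -10.36 ± 2.69 (SE) by edgeR with an adjusted p of 1, spanning 0.0611 to 1 over 15 other settings. Prss28 and Prss29, secreted proteases of mouse uterine glands, were at 0 in both ovaries and at 14.6 and 2.30 TPM in the uterus. Epcam, an adhesion protein of epithelia, was at 263, 1000.5 and 670.3 TPM in ovary T3F, ovary T173F and the uterus.

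By median, smooth muscle genes were lower in ovary T3F and near the uterus in ovary T173F. Of 20 listed genes, 15 had both ovary libraries below the uterus and 1 had both above, against 29.8% and 27.2% of all genes. By size, 1 was past 4-fold below the uterus in both ovaries, against 1.08% of all genes, and 0 above. In ovary T173F 10 were at least 4-fold higher than in ovary T3F, against 6.52%. The median log2 ratio to the uterus was -2.36 in ovary T3F and -0.25 in ovary T173F. Acta2, smooth muscle actin, was at 724, 3954 and 4705 TPM in ovary T3F, ovary T173F and the uterus. Des, an intermediate filament of muscle, was at 78.9, 1690 and 1533 TPM in ovary T3F, ovary T173F and the uterus, Cnn1, calponin, at 54.9, 836 and 905 TPM in ovary T3F, ovary T173F and the uterus, and Myh11, smooth muscle myosin, at 89.0, 608 and 579.6 TPM in ovary T3F, ovary T173F and the uterus. The gene past the 4-fold size below the uterus in both ovaries was Pcp4, a calmodulin-binding protein. It was at 4.98 TPM in ovary T3F and 149 TPM in ovary T173F, against 2799 TPM in the uterus. Its log2 fold change was -5.34 ± 1.33 (SE) by edgeR with an adjusted p of 1, spanning 2.27e-09 to 1 over 15 other settings, and DESeq2 gave an adjusted p of 0.00288.

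Matrix genes were mostly lower in both ovaries. Of 20 listed stromal genes 17 had both ovary libraries below the uterus, where 29.8% of all genes did. Past the 4-fold size were 3 (Col3a1, Dcn and Postn), against 1.08% of all genes. The list's median log2 ratio was -1.93 in ovary T3F and -1.24 in ovary T173F. Col3a1, a fibrillar collagen, was at 245 TPM in ovary T3F and 299 TPM in ovary T173F, against 1606 TPM in the uterus, and Dcn, the collagen-binding proteoglycan decorin, at 423 TPM in ovary T3F and 666 TPM in ovary T173F, against 2711 TPM in the uterus. Postn, a matricellular protein, was at 18.2 TPM in ovary T3F and 352 TPM in ovary T173F, against 1606 TPM in the uterus. Lum and Fbn1 went the other way, at 803, 620 and 510.4 TPM in ovary T3F, ovary T173F and the uterus and at 348, 283 and 242 TPM in ovary T3F, ovary T173F and the uterus.

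Genes of other cell types and of the cell cycle were listed as well. All 11 endothelial genes had both ovary libraries below the uterus, where 29.8% of all genes did, and 0 reached 4-fold; the vascular cadherin Cdh5 was at 259.5, 245 and 383 TPM in ovary T3F, ovary T173F and the uterus. Of 10 macrophage and lymphocyte genes 7 had both ovary libraries below the uterus and 3 above, against 29.8% and 27.2% of all genes. Their median log2 ratio to the uterus was -0.21 in ovary T3F and -0.92 in ovary T173F. By size, 2 were past 4-fold below the uterus and 0 above, against 1.08% and 1.57% of all genes. Adgre1, a macrophage surface receptor, was at 20.4, 11.9 and 143 TPM in ovary T3F, ovary T173F and the uterus. The complement gene C1qa was at 45.5, 54.9 and 234 TPM in ovary T3F, ovary T173F and the uterus. Of 10 surface and mesothelium genes 5 had both ovary libraries above the uterus and 2 below, against 27.2% and 29.8% of all genes. Their median log2 ratio to the uterus was 0.10 in ovary T3F and 1.73 in ovary T173F. By size, 0 were past 4-fold above the uterus and 1 below, against 1.57% and 1.08% of all genes. The 1 below was Aldh1a2, which makes retinoic acid. It was at 16.1, 51.0 and 537 TPM in ovary T3F, ovary T173F and the uterus. Of 19 cell cycle genes, 17 had both ovary libraries above the uterus, where 27.2% of all genes did. Past the 4-fold size above the uterus were 4 (Mki67, Top2a, Cdk1 and Aurkb), against 1.57% of all genes. Mki67, a marker of cycling cells, was at 72.8, 67.2 and 8.95 TPM in ovary T3F, ovary T173F and the uterus. Ccnb1, a mitotic cyclin also stored in oocytes, was at 137, 19.7 and 4.36 TPM in ovary T3F, ovary T173F and the uterus, with a DESeq2 adjusted p of 0.0290, spanning 0.00351 to 1 over 15 other settings and 1 without ovary T3F. Liver and pancreas genes summed to 13.8, 15.97 and 18.9 TPM over 8 genes in ovary T3F, ovary T173F and the uterus. Hbb-bs, the beta globin of red cells, was at 4720.2, 794 and 919 TPM in ovary T3F, ovary T173F and the uterus. Of 9 adipocyte genes 4 were at least 4-fold higher in ovary T173F than in ovary T3F, where 6.52% of all genes were. Among these Adipoq was at 5.14, 102 and 26.1 TPM in ovary T3F, ovary T173F and the uterus.

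The ovary libraries were then set against each other, T3F over T173F, by size alone, since each animal gave 1 library. At least 4-fold on TPM + 1, with 10 TPM in the higher library, 365 of 18970 genes (1.92%) were higher in ovary T3F and 1237 (6.52%) in ovary T173F; on TMM-scaled CPM the counts were 273 and 798. Among the lists, those of luteal, steroid and cholesterol genes held 10, 10 and 8 genes higher in ovary T3F and 0 higher in ovary T173F; those of oviduct, uterine epithelium and smooth muscle held 10, 11 and 10 higher in ovary T173F and 0 higher in ovary T3F. The median log2 ratio was 3.21 for luteal genes, 2.41 for steroid genes and 1.93 for cholesterol genes, 0.43 for granulosa genes, -0.16 for theca genes and -0.48 for oocyte genes, 0.39 for macrophage and lymphocyte genes and -0.01 for endothelial genes, -2.25 for adipocyte genes, and -2.0, -4.33 and -5.62 for smooth muscle, uterine epithelium and oviduct genes, beside -0.04 for all genes.

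**Figure D4:**
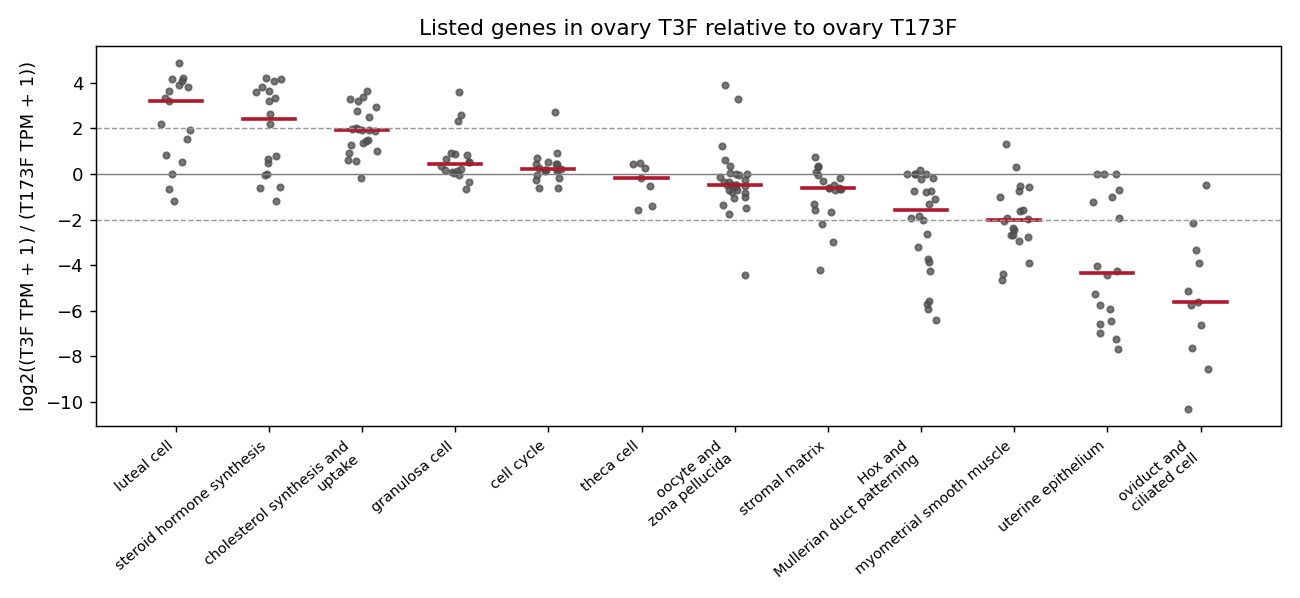
Log2 ratio of TPM + 1 in ovary T3F over ovary T173F (y) for the genes of 12 lists (x), 1 point a gene; red lines are list medians and dashed lines mark 4-fold. Luteal, steroid and cholesterol medians lie near or above 2, granulosa, theca and oocyte medians near 0, and the oviduct median at -5.62.

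Of the 10 genes with the largest ratio toward ovary T3F, 9 were listed at 0 in ovary T173F, and 7 of these rested on 13 to 51 expected counts in ovary T3F. Mrap, which brings the receptor for adrenocorticotropic hormone to the cell surface, was at 222 TPM in ovary T3F and at 0 in ovary T173F and the uterus. The chemokine Ccl17 and the milk casein Csn2 were at 102 and 47.5 TPM in ovary T3F and at 0 in the other 2 libraries. The largest with a level in both was mt-Co1, a mitochondrial subunit of cytochrome oxidase. It was at 1233, 11.5 and 1165 TPM in ovary T3F, ovary T173F and the uterus. Another mitochondrial gene, mt-Nd5, was at 12653, 1266 and 16075 TPM in ovary T3F, ovary T173F and the uterus. Other T173F libraries were low in mt-Co1 too: 3.05 and 1.02 TPM in the adrenal libraries, 54.4 TPM in bladder and 9.41 TPM in trachea. In those libraries mt-Nd5 was at 1133.7 to 3642.3 TPM. Whether these differences follow the animal was not tested. Copies in the nuclear genome leave such levels uncertain. The others of the 10 were Actbl2, 2310011J03Rik, Vma21-ps, Zfp345, Zfp992 and Gm10330, at 59.5 to 84.5 TPM in ovary T3F. In the uterus, from the same animal, Actbl2, Vma21-ps and Gm10330 were at 64.2, 77.4 and 59.8 TPM. There 2310011J03Rik, Zfp345 and Zfp992 were at 5.06, 22.8 and 26.1 TPM. Spp1, the matrix protein osteopontin, chosen after its values were seen, was at 2244, 117 and 9.24 TPM in ovary T3F, ovary T173F and the uterus. Of the 365 genes 143 (39.18%) had a level in the adrenal gland under kidney at most 4-fold below ovary T3F, or above it. In the uterus 91 (24.93%) had such a level, and in the trachea 47 (12.88%). The share over all genes was not computed, so no likeness beyond that of other genes is read from these.

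Toward ovary T173F the leading genes included products of secretory and ciliated epithelium. Ovgp1 was 1254-fold higher in ovary T173F on TPM + 1 and DESeq2 called it higher in ovary than in uterus with an adjusted p of 0.0215, spanning 9.44e-08 to 1 over 15 other settings. Without ovary T173F the log2 fold change to the uterus turned to -4.64, with an adjusted p of 0.200. DESeq2 also called Foxj1 and Cfap126 higher, with adjusted p of 0.0185 and 0.0205, spanning 1.16e-04 to 1 and 0.00199 to 1, and without ovary T173F they were 1 and 1. Foxj1, the master factor of motile cilia, was at 2.93, 210.4 and 1.30 TPM in ovary T3F, ovary T173F and the uterus. Rsph1, of the radial spokes, was at 1.59, 254 and 5.15 TPM in ovary T3F, ovary T173F and the uterus, Dnah5, an axonemal dynein, at 0.163, 56.1 and 0.359 TPM in ovary T3F, ovary T173F and the uterus, and Cfap126, which positions cilia, at 3.43, 887 and 5.01 TPM in ovary T3F, ovary T173F and the uterus. Over 25 Cfap genes of cilia and flagella the sum was 276 TPM in ovary T3F and 2296 TPM in ovary T173F, against 296 TPM in the uterus. The exception among the 11 listed genes was Dnah11, at 33.0, 46.0 and 5.003 TPM in ovary T3F, ovary T173F and the uterus.

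The trachea library of T173F, a ciliated organ, had 30.0 TPM of Foxj1 and 68.6 TPM of Rsph1 but 0.0752 TPM of Ovgp1. Sntn, a protein of the ciliary tip, was at 0 in ovary T3F and 536 TPM in ovary T173F, against 0.943 TPM in the uterus. Wfdc18, of a family of protease inhibitors, was at 0 in ovary T3F and 3658 TPM in ovary T173F, against 97.1 TPM in the uterus. Lcn2, an iron-binding secreted protein, was at 2.36, 2240.3 and 1519 TPM in ovary T3F, ovary T173F and the uterus, and Cxcl17, a mucosal chemokine, at 0.345, 783 and 222 TPM in ovary T3F, ovary T173F and the uterus. Cfc1, a co-receptor for Nodal, was at 509 TPM in ovary T173F and at 0 in the other 2 libraries. The others of the 10 were BC048546, Gm45396, 1700016K19Rik and Wfdc15b, at 497 to 1493 TPM in ovary T173F. Wfdc18, BC048546 and Cxcl17 had their highest site in trachea, at 11328.5, 7409.9 and 1494 TPM. Ovgp1, Gm45396, 1700016K19Rik, Sntn and Cfc1 had theirs in ovary. Lcn2 was highest in bone marrow and Wfdc15b in kidney medulla. Of the 1237 genes 714 (57.72%) had a level in the uterus at most 4-fold below ovary T173F, or above it. In the trachea 550 (44.46%) had such a level, and in the adrenal gland under kidney 236 (19.08%). For all genes these shares were not computed, so they do not show a likeness to those organs beyond that of other genes.

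**Figure D5:**
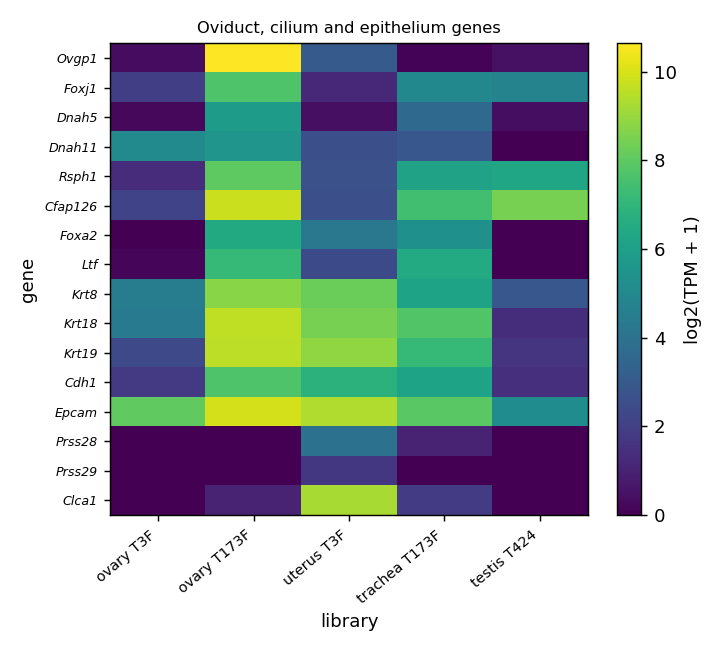
Log2(TPM + 1) (colour) of the oviduct, cilium and uterine epithelium genes described here (lines) in ovary T3F, ovary T173F, uterus T3F, trachea T173F and testis T424 (columns). Ovary T173F is bright for Ovgp1, Foxj1 and Cfap126, which are dark in ovary T3F and uterus, and shares the keratins and Cdh1 with the uterus, where Clca1 is bright.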

How the data were processed

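RNA of 59 libraries was measured by RNA-seq; per the labels' protocols, polyadenylated RNA was used with an Illumina TruSeq kit. The authors deposited expected counts, the estimated counts per gene that RSEM gives, and TPM for the same 18970 genes. Per the submitters' processing notes, Bowtie 0.12.8 and RSEM (version not stated) were used. Build and annotation: not given in the sources used here. All columns matched a library title, and symbols are the authors', in mouse form.

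Rounded expected counts, with both retina sides of T3F added together (58 columns), went into the quasi-likelihood test of edgeR 4.0.16 (R 4.3.3), with TMM scaling, filterByExpr, site as the group and Benjamini-Hochberg adjustment. Calls needed an adjusted p below 0.05 and a log2 fold change of 1 or more in size. DESeq2 1.42.0 and limma-voom (limma 3.58.1) were alternatives. The tests were tested on simulated data. The simulated spread between libraries was smaller than that fitted here, so the simulation does not show how the tests perform on this comparison. Levels printed are deposited TPM; ratios use TPM + 1, so they understate differences of low genes. The size description took at least 4-fold with at least 10 TPM in the higher library. Its use for both ovaries against the uterus was added after seeing the data.

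Replicates are libraries of different animals, so SD and n refer to the 2 ovaries. Because RSEM shares reads among near copies, levels of Hsd3b, Akr1c, Nlrp, Hbb, Gm and mitochondrial genes are uncertain. Depth differs between the ovary libraries, and limits from counts cover counting error only. The 24 lists hold 325 genes, of which 319 are in the tables. Members and lists were chosen with earlier results of these data known. The rule for named genes took up to 12 called genes per direction with at least 20 TPM, of which edgeR gave 0, up to 10 genes per direction between the ovaries, any list member, and the 5 most abundant genes per library; genes named outside it were chosen after their values were seen. Alternatives changed the scaling, the filter, the test, the libraries fitted, the pseudocount, the minimum level and the fold; animal was also fitted as a replicate block, since ovary T3F and the uterus come from 1 animal. Single values of some listed genes are not reported here.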

Additional observations from a re-analysis of the deposited data

How the results depend on the processing

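With 1 uterus library and 2 ovary libraries that differ in content, edgeR called 0 genes under every edgeR setting run: other scaling, no filter, a stricter filter, the 3 libraries alone, the reduced and strict sets, retina sides apart, and each ovary left out. Unadjusted p below 0.05 was reached by 398 to 1526 genes over those settings; the dispersion was 0.4952 with all libraries and 0.17 in the strict set, which leaves out 8 libraries. With animal as a replicate block edgeR called 0 genes in either direction (796 at an unadjusted p below 0.05), and no call changed through the block.

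Counts moved with the tool. DESeq2 called 177 higher and 43 lower and limma-voom 5 and 8; in the reduced set DESeq2 called 257 and 89, and without 1 ovary it called 79 to 193 higher and 41 to 217 lower. Among listed genes DESeq2 called 14 higher and 3 lower, limma-voom 2 and 3, DESeq2 in the reduced set 18 and 4, and DESeq2 without 1 ovary 8 to 15 higher and 2 to 15 lower. The cause was not tested.

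Size counts moved with their limits, by construction; TMM-scaled CPM changes scaling and unit, and the cause of its moves was not tested. For ovary T3F over T173F, 218 genes passed at a minimum of 50 TPM and 1115 at 2-fold, in place of 365; toward ovary T173F 821 passed with a pseudocount of 5 TPM, 542 at 50 TPM, 2344 at 2-fold and 798 on TMM-scaled CPM, in place of 1237. For both ovaries above the uterus the counts were 180, 98, 620 and 170 in that order, in place of 297, and 746 to 889 with 1 ovary alone. For both below they were 124 with a pseudocount of 5 TPM, 89 at 50 TPM and 629 at 2-fold, in place of 205, and 306 to 879 with 1 ovary alone. Of the genes whose fold was refitted, Ovgp1 and Cfap126 turned direction, without ovary T173F: their log2 fold change to the uterus was then -4.6 and -0.48 by edgeR and -4.64 and -0.5 by DESeq2; the cause was not tested. Without ovary T3F edgeR gave 7.69 and 7.32.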

Other observations

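Genes in no list above, named after their values were seen, also separated ovary from uterus. Crybb1 and Cryba4, crystallins best known from the lens, were at 704 TPM in ovary T3F and 65.5 TPM in ovary T173F, against 0.0969 TPM in the uterus, and at 659 TPM in ovary T3F and 23.8 TPM in ovary T173F, against 0.128 TPM in the uterus. Slc6a4, the serotonin transporter, was at 74.5 TPM in ovary T3F and 7.42 TPM in ovary T173F, against 0.292 TPM in the uterus, and Cbln1, a secreted synaptic organizer of the cerebellum, at 84.2 TPM in ovary T3F and 93.3 TPM in ovary T173F, against 0.503 TPM in the uterus. Nlrp2, of the family of Nlrp5, was at 55.8 TPM in ovary T3F and 93.1 TPM in ovary T173F and at 0 in the uterus. Gja1, the gap junction protein connexin 43, was at 6673 TPM in ovary T3F and 1464 TPM in ovary T173F, against 298 TPM in the uterus. DESeq2 gave adjusted p of 6.44e-04 for Crybb1, spanning 4.71e-04 to 1 over 15 other settings and 0.126 without ovary T3F, and 1.22e-05 for Cbln1, spanning 7.13e-06 to 1. For Nlrp2 limma-voom gave 0.0476, the lowest over 15 other settings, whose highest was 1, and edgeR gave 1, 0.966 and 1 for Crybb1, Cbln1 and Nlrp2.

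Lower in both ovaries were Dio2, which activates thyroid hormone, at 0.943 TPM in ovary T3F and 2.30 TPM in ovary T173F, against 167 TPM in the uterus, Rprm, a regulator of the cell cycle, at 11.7 TPM in ovary T3F and 9.64 TPM in ovary T173F, against 1085 TPM in the uterus, and the chemokine Cxcl14 at 37.1 TPM in ovary T3F and 43.5 TPM in ovary T173F, against 810.3 TPM in the uterus. Mt1, a metal-binding metallothionein, was at 50.7 TPM in ovary T3F and 163 TPM in ovary T173F, against 3302 TPM in the uterus. The granzymes Gzmc and Gzme, proteases of cytotoxic lymphocytes, were at 2.78 TPM in ovary T3F and 0 TPM in ovary T173F, against 348 TPM in the uterus, and at 4.02 TPM in ovary T3F and 0 TPM in ovary T173F, against 146 TPM in the uterus; summed over 7 Gzm genes the level was 13.6 TPM in ovary T3F and 1.07 TPM in ovary T173F, against 548 TPM in the uterus. The granzymes are near copies, so single levels are uncertain. DESeq2 gave adjusted p of 3.71e-06 for Dio2, spanning 2.82e-06 to 1 over 15 other settings, and 4.69e-04 for Rprm, spanning 4.68e-04 to 1; edgeR gave 0.966 for both.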
